A study of Homo sapiens with 9 samples.

Results

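The 3 libraries labelled IRF2KO_pIRF2 were compared with 3 libraries labelled IRF2KO, 6 of the 9 RNA-seq libraries of the series, to find which functions lost in the knockout came back and which changes were new. The genes described are those counted highly enough to be tested, 11517 of the 20265 in the table. The cells were U937-Cas9, a derivative of the human monocytic line U937 that carries the Cas9 nuclease, so the host line and Cas9 are shared by all groups. The IRF2KO_pIRF2 cells (compIRF2 in the short library names) have the IRF2 knockout and also carry pIRF2, the IRF2KO cells have the knockout alone, and the WT cells have neither. The labels give no treatment or time point and do not describe the insert of pIRF2, the edit at IRF2 or whether a line is 1 clone. Separate cultures are not stated for the replicates either, so each p-value measures the spread between these libraries, which may be technical.

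IRF2 is an interferon regulatory factor, one of a family of DNA-binding proteins that recognise repeats of GAAA in the promoters of interferon-responsive genes. It is known both for opposing IRF1 at such promoters and for keeping some of them active in resting cells. The genes concerned serve antiviral defence, antigen processing and pyroptosis, the lytic death that inflammatory caspases trigger when bacterial products reach the cytosol.

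The targeted gene was examined first. IRF2 had 15.2, 18.1 and 18.4 CPM (counts per library scaled by TMM to one size) in the libraries labelled IRF2KO_pIRF2, 23.5, 25.9 and 25.5 CPM in IRF2KO and 37.1, 39.1 and 44.1 CPM in WT. The IRF2KO_pIRF2 libraries were thus the lowest, with no overlap with either other group. The log2 fold change was -0.53 ± 0.13 (SE) against IRF2KO, which did not pass the test (edgeR quasi-likelihood adjusted p = 0.24), and -1.22 ± 0.13 against WT, which did (adjusted p = 0.0029 by the same edgeR test). IRF2KO was itself called lower than WT (log2 fold change -0.685 ± 0.125, SE, adjusted p = 0.043 by the same edgeR test). IRF2 transcripts counted at the locus therefore do not check the label, every direction below rests on that label, and whether transcripts of pIRF2 were counted is not given in the sources used here. Against IRF2KO, DESeq2 called IRF2 lower (log2 fold change -0.54, adjusted p = 0.015).

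In the libraries labelled IRF2KO_pIRF2 a small set of antiviral, antigen-processing and cell-death genes was higher than in IRF2KO, while most of the transcriptome did not pass the test. Of the 11517 genes, 42 passed edgeR's quasi-likelihood test at a Benjamini-Hochberg adjusted p of 0.05, which is 0.365% of them, with 39 higher (0.339%) and 3 lower (0.026%). Among them, PSMB9, an immunoproteasome subunit, was 6.62-fold higher, CASP4, the cytosolic receptor for bacterial lipopolysaccharide, 5.67-fold and PARP14, an ADP-ribosyltransferase, 4.94-fold. The change was at least 2-fold for 35 of the 42. In each of the 42 the 3 libraries of one group lay outside the range of the other, as they did in 11.1% of all tested genes upward and in 11.5% downward. The median log2 fold change over all tested genes was 0.002. An unadjusted p under 0.05 was found for 1291 of the 11517 genes, the background for such counts in the lists below. In bulk RNA, fewer cells with a transcript and less transcript per cell cannot be told apart.

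The 42 genes fell into 3 sets by their values in WT. A gene was said to have come back when it also passed the test in IRF2KO against WT with the opposite sign. This held for 28 genes, 27 of them higher in IRF2KO_pIRF2 than in IRF2KO and 1 lower. The comparison of IRF2KO with WT called 48 genes (0.417% of those tested), 6 higher (0.0521%) and 42 lower (0.365%), and the other 20 of these were not called in IRF2KO_pIRF2 against IRF2KO. A gene was said to lie outside both groups when it passed against IRF2KO and against WT with the same sign, as CD84, RORB and GAL did. The comparison of IRF2KO_pIRF2 with WT called 9 genes (0.0781%), 4 higher (0.0347%) and 5 lower (0.0434%). The remaining 11 of the 42 passed against IRF2KO alone. These sets share libraries between their comparisons, so their sizes are descriptions and were not tested.

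**Figure D1:**
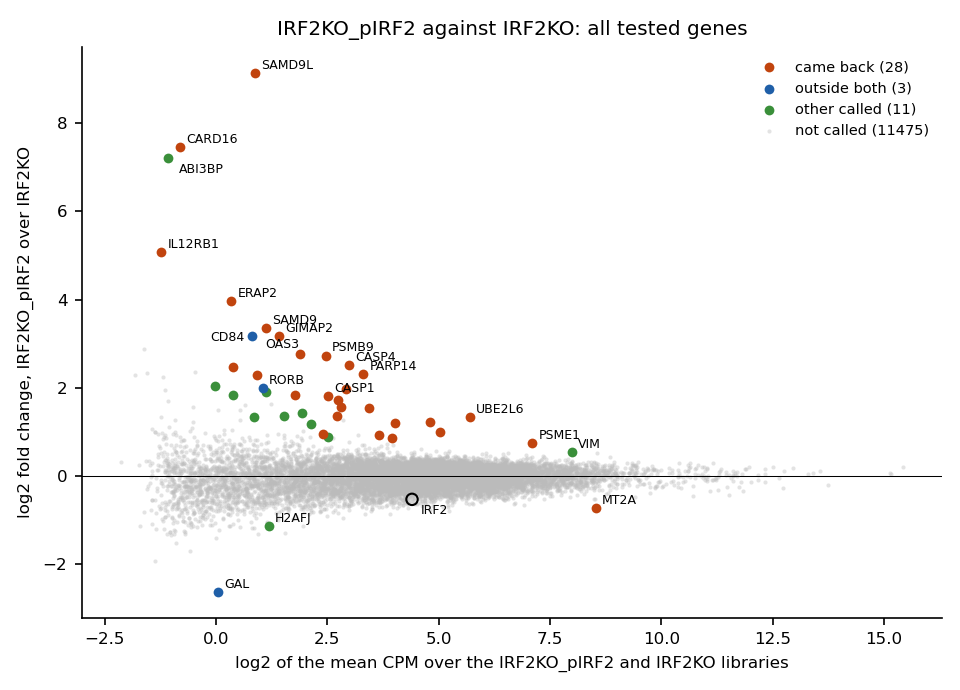
Log2 fold change of each tested gene in IRF2KO_pIRF2 over IRF2KO (vertical axis) against the log2 of its mean CPM over the 6 libraries (horizontal axis), with the 28 genes that came back in red, the 3 outside both groups in blue, the 11 other called genes in green and genes not called in grey. Called genes lie mostly above 0, MT2A, GAL and H2AFJ lie below it, and IRF2 is the open circle at -0.53; SAMD9L, CARD16 and ABI3BP have fitted values that depend on the prior count because their IRF2KO counts are 0.

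The libraries held 14824907 to 23108288 counts. Mitochondrially encoded genes took 17.3% to 18.0% of counts in IRF2KO_pIRF2, 12.2% to 18.8% in IRF2KO and 12.7% to 17.1% in WT. IRF2KO replicate 2 and WT replicate 1 lay at opposite ends of the first principal component, which held 56.4% of the variance. All 16 monocytic markers examined were detected in each group, with CD3D, MS4A1, HBB and EPCAM at 0 counts in all 9 libraries. Some markers of other cell types also had more than 3 counts over the IRF2KO_pIRF2 libraries. They were 7 of 16 for T and NK cells, 8 of 13 for B cells, 4 of 16 erythroid and megakaryocyte and 6 of 14 epithelial and fibroblast markers. Without IRF2KO replicate 2 the test called 41 genes higher and 2 lower, of which 37 and 2 were among the 39 and 3. Without IRF2KO_pIRF2 replicate 2 it called 25 higher, and without any 1 of the IRF2KO_pIRF2 libraries 1 lower. Fits by DESeq2, with 59 higher and 9 lower, and with GC and length trends removed, with 59 and 5, called more.

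GAAA repeats were searched for in the promoters of the called genes, using RefSeq windows of GRCh38.p14 from 250 bases before to 50 bases after each start. The motif was GAAA, then any 2 bases, then GAAA again, on either strand. Of the 28 genes that came back, 20 had a window and 13 of these held the motif (65%), against 372 of 9377 tested genes with a window (3.97%) and 1255 of all 35116 windows (3.57%). The stretches below, each with the match in capitals, are shown because these 7 genes have the match upstream of their start and are described by level further on. They run 5′ to 3′ on the gene's strand, and positions count back from -1, the base before the start.
PARP14: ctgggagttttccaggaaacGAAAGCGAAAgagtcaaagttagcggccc
SAMD9: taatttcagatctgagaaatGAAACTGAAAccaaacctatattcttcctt
ERAP2: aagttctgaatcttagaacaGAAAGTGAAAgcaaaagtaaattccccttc
OAS3: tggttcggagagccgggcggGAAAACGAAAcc
IFIH1: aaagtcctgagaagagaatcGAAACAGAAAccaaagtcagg
C19orf66: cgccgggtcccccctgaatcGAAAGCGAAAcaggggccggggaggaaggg
IFI6: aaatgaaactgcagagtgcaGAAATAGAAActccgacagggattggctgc
The stretch of PARP14 is chr3:122680790-122680838 (plus strand), with the match at -29 to -20. The stretch of SAMD9 is chr7:93118086-93118135 (minus strand), with the match at -136 to -127. The stretch of ERAP2 is chr5:96876450-96876499 (plus strand), with the match at -30 to -21. The stretch of OAS3 is chr12:112938442-112938473 (plus strand), with the match at -12 to -3. The stretch of IFIH1 is chr2:162318685-162318725 (minus strand), with the match at -21 to -12. The stretch of C19orf66 is chr19:10086254-10086303 (plus strand), with the match at -43 to -34. The stretch of IFI6 is chr1:27672256-27672305 (minus strand), with the match at -93 to -84.

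The 2 inner bases were the same in PARP14 and C19orf66 and differed in the other 5, while the GAAA repeats around them are fixed by the search. Further matches overlapped or lay nearby in some windows: IFIH1 had 2 that overlap one another on the opposite strand, starting at -159 and -153, IFI6 had others at -156 and -115, and OAS3 had one at -143. DTX3L had a match that began at -6. In GIMAP2, ERAP1, PSME1, FAM111A and BTN3A3 the match lay just after the start on the opposite strand, beginning at positions 2, 3, 6, 31 and 36. No match was found in the windows of PSMB9, SAMD9L, CASP4, UBE2L6, IL12RB1, BTN3A2 or MT2A, which says only that these letters are not in those windows. Of the 11 other called genes 9 had a window, and 1 of them, FCGR2B, held the motif. The sequences are descriptions and no binding was measured.

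Inflammatory caspases rose. Of 17 tested genes for inflammatory caspases and pyroptosis, 3 were higher in IRF2KO_pIRF2 than in IRF2KO and none lower, against a median log2 fold change of 0.11 for the list and 0.002 for all genes, and the same 3 had been lower in IRF2KO than in WT. CASP4 had 11.9, 14.5 and 14 CPM in IRF2KO_pIRF2, 2.32, 1.82 and 2.99 CPM in IRF2KO and 32.1, 23.9 and 24.3 CPM in WT. Each IRF2KO_pIRF2 library lay above every IRF2KO and below every WT library, at a mean of 50.4% of WT, against 8.88% in IRF2KO. The log2 fold change over IRF2KO was 2.50 ± 0.20 (SE, edgeR adjusted p = 1.7e-04). CASP1, which matures interleukin-1β, had 7.99, 9.97 and 8.72 CPM in IRF2KO_pIRF2, 3.57, 1.42 and 2.65 CPM in IRF2KO and 14, 12.7 and 12.3 CPM in WT, again 3 separate ranges with IRF2KO_pIRF2 in the middle. It rose by 1.81 ± 0.26 on the log2 scale (SE, edgeR adjusted p = 0.0067), a call lost without IRF2KO replicate 3 (adjusted p = 0.056) and without IRF2KO_pIRF2 replicate 2 (adjusted p = 0.057).

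CARD16, a caspase recruitment domain protein beside CASP1, had 22, 18 and 33 counts in IRF2KO_pIRF2, 0, 0 and 0 counts in IRF2KO and 43, 29 and 33 counts in WT. With the floor set at 3 counts over the whole IRF2KO group, it was at least 20.8-fold higher in IRF2KO_pIRF2. CARD16 resembles CASP1 in sequence, so reads may have been split between them and both values are uncertain. GSDMD, the pore-forming effector of pyroptosis, had 19.7, 18.7 and 17.0 CPM in IRF2KO_pIRF2, 22, 32.6 and 19.1 CPM in IRF2KO and 15.4, 21.2 and 24.2 CPM in WT. Its groups overlapped, and the log2 fold change of -0.41 ± 0.21 (SE) did not pass (edgeR adjusted p = 0.45).

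**Figure D2:**
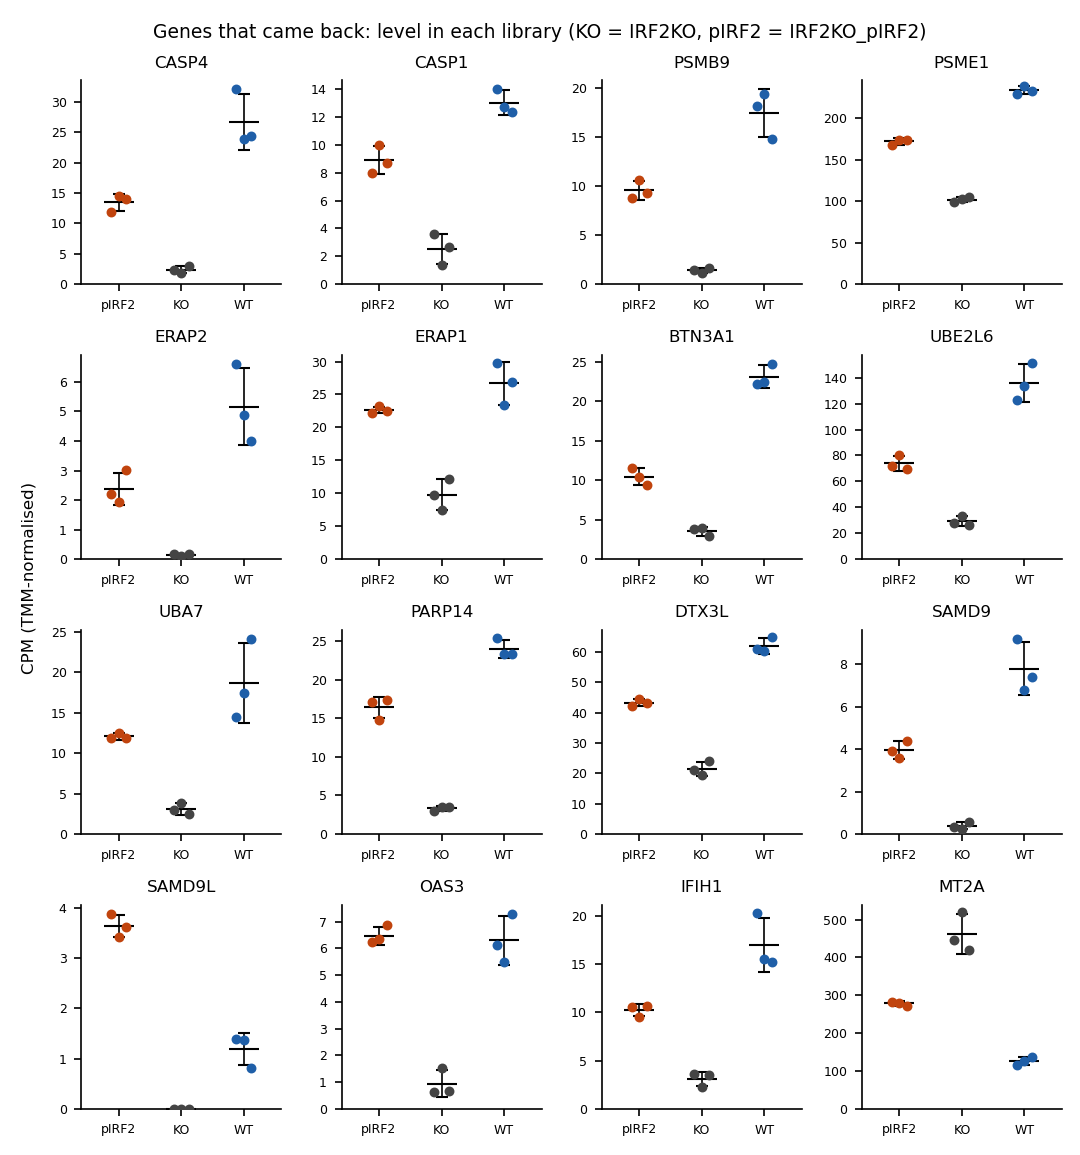
TMM-normalised CPM of 16 genes that came back in each of the 9 libraries, by group (IRF2KO_pIRF2, IRF2KO and WT from left to right), with points for libraries and bars for the mean ± SD. In most panels the IRF2KO_pIRF2 libraries stand between the low IRF2KO and the high WT libraries; in OAS3 they reach WT, in SAMD9L they lie above it, and in MT2A the order is turned round.

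Antigen processing came back in part. Of 10 tested genes for the immunoproteasome, its PA28 activator and peptide transport, 3 rose (PSMB9, PSME1 and TAPBPL) and none fell, with a list median of 0.44, while 3 had been lower in IRF2KO than in WT (PSMB9, PSME1 and PSME2). PSMB9 had 8.80, 10.6 and 9.24 CPM in IRF2KO_pIRF2, 1.47, 1.16 and 1.69 CPM in IRF2KO and 18.2, 19.4 and 14.7 CPM in WT, with no overlap among the groups. Its log2 rise was 2.73 ± 0.20 (SE, edgeR adjusted p = 8.6e-05). PSMB8 and an antisense gene cover 5.66% of its exons, so some of its reads are uncertain. PSME1, a PA28 subunit, had 168, 174 and 174 CPM in IRF2KO_pIRF2, 98.8, 102 and 104 CPM in IRF2KO and 229, 239 and 232 CPM in WT, a smaller change of 0.75 ± 0.09 on the log2 scale (SE, edgeR adjusted p = 0.0018). Its partner subunit PSME2 had 109.7, 114 and 108 CPM in IRF2KO_pIRF2, 82.7, 75.2 and 73.3 CPM in IRF2KO and 120.4, 128 and 124 CPM in WT. The IRF2KO_pIRF2 and IRF2KO libraries of PSME2 did not overlap, but its log2 fold change of 0.52 ± 0.10 (SE) missed the threshold (edgeR adjusted p = 0.051) and passed in 4 alternatives.

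The aminopeptidases that trim peptides for MHC class I also rose, 2 of 3 tested. ERAP2 had 2.19, 1.93 and 3.0 CPM in IRF2KO_pIRF2, 0.170, 0.101 and 0.169 CPM in IRF2KO and 6.59, 4.89 and 4.01 CPM in WT. It rose by 3.97 ± 0.40 on the log2 scale (SE, edgeR adjusted p = 6.3e-04) and reached 46.0% of the WT mean, against 2.84% in IRF2KO. ERAP1 had 22.2, 23.2 and 22.5 CPM in IRF2KO_pIRF2, 9.69, 7.49 and 12.2 CPM in IRF2KO and 29.8, 23.4 and 26.9 CPM in WT, each IRF2KO_pIRF2 library below each WT library but at 84.9% of its mean. Its rise of 1.21 ± 0.17 (log2, SE; edgeR adjusted p = 0.0077) was not called without IRF2KO_pIRF2 replicate 2 (adjusted p = 0.061) or with only libraries above 15% mitochondrial counts (adjusted p = 0.058). CAST and another gene cover 6.94% of its exons. The third member, LNPEP, averaged 62.6 ± 1.89 CPM in IRF2KO_pIRF2, 56.9 ± 7.03 in IRF2KO and 62.0 ± 7.61 in WT (SD, n = 3 each) and did not pass (edgeR adjusted p = 0.6).

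Of 9 tested genes for MHC class I chains and their assembly, 5 of them chains, none passed by edgeR, DESeq2 or limma, and 1 had an unadjusted p under 0.05. HLA-B averaged 659.9 ± 44.8 CPM in IRF2KO_pIRF2, 538 ± 68.3 in IRF2KO and 775 ± 82.4 in WT (SD, n = 3 each), with a log2 fold change over IRF2KO of 0.29 ± 0.12 (SE, edgeR adjusted p = 0.44). With GC and length trends removed HLA-B was called higher (log2 fold change 0.51, edgeR adjusted p = 0.006). HLA genes resemble one another closely, so their counts are uncertain. The immunoproteasome subunits PSMB8 and PSMB10 and the transporter gene TAP1 did not pass either, with log2 fold changes of 0.28, 0.50 and -0.14. PSMB10 was called in 1 alternative, without WT replicate 1 and IRF2KO replicate 2 together (edgeR adjusted p = 0.045). None of 25 constitutive proteasome genes passed by edgeR, DESeq2 or limma, with a median log2 fold change of 0.03 and none at an unadjusted p under 0.05. Of 5 tested MHC class II presentation genes none passed by the same tools, with 1 at an unadjusted p under 0.05, and without a filter on low counts HLA-DPA1, not tested otherwise, was called higher (edgeR adjusted p = 0.037).

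The butyrophilins BTN3A1, BTN3A2 and BTN3A3, of a family that acts in the response of gamma-delta T cells to phosphoantigens, rose as a trio, 3 of 5 tested butyrophilins. The same 3 had been lower in IRF2KO than in WT. BTN3A1 had 11.6, 10.4 and 9.39 CPM in IRF2KO_pIRF2, 3.80, 3.90 and 2.87 CPM in IRF2KO and 22.1, 22.4 and 24.8 CPM in WT, a log2 rise of 1.56 ± 0.16 (SE, edgeR adjusted p = 7.8e-04). It was still called lower than WT, by a log2 fold change of -1.15 ± 0.15 (SE, edgeR adjusted p = 0.011). BTN3A3 and BTN3A2 reached 43.4% and 62.7% of the WT mean in IRF2KO_pIRF2, against 12.1% and 34.3% in IRF2KO. The call of BTN3A2 was lost in 5 of 20 alternatives (adjusted p of 0.067 to 0.13), among them those without IRF2KO replicate 1 or 3 and without IRF2KO_pIRF2 replicate 1 or 2. The 3 genes are close paralogs whose reads may have been split, so the division between them is uncertain. The related BTN2A1 and BTN2A2 had log2 fold changes of -0.02 and 0.04 and did not pass.

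Enzymes that attach ISG15, a ubiquitin-like protein of the interferon response, rose without ISG15 itself being called. Of 6 tested genes for ISG15 conjugation and removal, 2 rose, UBA7 and UBE2L6, while 4 had been lower in IRF2KO than in WT (UBA7, UBE2L6, USP18 and HERC6). UBA7, the activating enzyme, had 11.9, 12.5 and 11.8 CPM in IRF2KO_pIRF2, 2.95, 3.85 and 2.42 CPM in IRF2KO and 14.4, 17.4 and 24.1 CPM in WT, a log2 rise of 1.97 ± 0.22 (SE, edgeR adjusted p = 0.0016). UBE2L6, the conjugating enzyme, had 71.8, 80.6 and 69.7 CPM in IRF2KO_pIRF2, 28.3, 33.5 and 26.4 CPM in IRF2KO and 122.9, 133 and 151 CPM in WT, 3 separate ranges. It rose by 1.33 ± 0.13 over IRF2KO (log2, SE; edgeR adjusted p = 5.6e-04) and remained below WT by the test (log2 fold change -0.88 ± 0.13, SE; edgeR adjusted p = 0.029). USP18, which removes ISG15, averaged 3.71 ± 0.809 CPM in IRF2KO_pIRF2, 2.04 ± 0.384 in IRF2KO and 5.45 ± 0.415 in WT (SD, n = 3 each; edgeR adjusted p = 0.29 against IRF2KO). ISG15 had 4.85, 6.10 and 4.72 CPM in IRF2KO_pIRF2, 6.57, 8.0 and 6.54 CPM in IRF2KO and 3.09, 6.26 and 4.98 CPM in WT, ranges that overlap between IRF2KO_pIRF2 and WT and lie a little higher in IRF2KO, with no call (edgeR adjusted p = 0.45).

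Of 7 interferon-inducible PARP genes and partners, 2 rose. PARP14 had 17.1, 14.8 and 17.4 CPM in IRF2KO_pIRF2, 2.95, 3.44 and 3.55 CPM in IRF2KO and 25.3, 23.4 and 23.3 CPM in WT, the change with the lowest p of all tested genes (log2 fold change 2.304 ± 0.14, SE; edgeR adjusted p = 3.9e-05). DTX3L, a ubiquitin ligase, had 42.1, 44.4 and 43.3 CPM in IRF2KO_pIRF2, 21.1, 19.5 and 24.1 CPM in IRF2KO and 60.9, 60.2 and 65.1 CPM in WT, a log2 rise of 1.005 ± 0.12 (SE, edgeR adjusted p = 0.0016). In both genes the 3 groups had separate ranges with IRF2KO_pIRF2 in the middle. PARP9, which pairs with DTX3L and shares its promoter region head to head, averaged 3.88 ± 0.318 CPM in IRF2KO_pIRF2, 2.71 ± 0.646 in IRF2KO and 4.59 ± 1.05 in WT (SD, n = 3 each) and did not pass (edgeR adjusted p = 0.44).

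SAMD9 and SAMD9L, neighbouring genes whose proteins restrict poxviruses, both rose, but not to the same position relative to WT. SAMD9 had 3.91, 3.57 and 4.38 CPM in IRF2KO_pIRF2, 0.340, 0.253 and 0.564 CPM in IRF2KO and 9.16, 6.79 and 7.39 CPM in WT, a mean of 50.8% of WT (edgeR adjusted p = 1.7e-04 against IRF2KO). SAMD9L had 90, 69 and 76 counts in IRF2KO_pIRF2, 0, 0 and 0 counts in IRF2KO and 27, 21 and 16 counts in WT. Against the floor of 3 counts over the IRF2KO group, it was at least 67.1-fold higher in IRF2KO_pIRF2. All 3 IRF2KO_pIRF2 libraries exceeded the WT libraries, at a mean of 304.5% of WT, a difference that did not pass the test (log2 fold change 1.61 ± 0.24, SE; edgeR adjusted p = 0.065).

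Of 7 tested RNA sensors and helicases 1 rose, IFIH1, which encodes the long double-stranded RNA sensor MDA5, while 3 had been lower in IRF2KO than in WT. IFIH1 had 10.5, 9.47 and 10.7 CPM in IRF2KO_pIRF2, 3.57, 2.23 and 3.49 CPM in IRF2KO and 20.2, 15.5 and 15.2 CPM in WT, with separate ranges (log2 fold change 1.73 ± 0.20, SE; edgeR adjusted p = 0.0018). DDX60, an antiviral helicase, had 2.32, 1.98 and 2.76 CPM in IRF2KO_pIRF2, 1.25, 0.506 and 0.564 CPM in IRF2KO and 3.81, 3.52 and 3.23 CPM in WT. Its log2 fold change of 1.62 ± 0.31 (SE) missed the threshold (edgeR adjusted p = 0.057), although the groups did not overlap, and it passed in 7 of 20 alternatives, the one without IRF2KO replicate 1 among them. DDX60L had 12.3, 11.1 and 12.1 CPM in IRF2KO_pIRF2, 6.69, 6.17 and 5.92 CPM in IRF2KO and 22, 18.5 and 12.1 CPM in WT, also without overlap between IRF2KO_pIRF2 and IRF2KO and also without a call (edgeR adjusted p = 0.15), though it passed in 5 of 20 alternatives (adjusted p of 0.0068 to 0.031), among them the one without WT replicate 3 (adjusted p = 0.014). DESeq2 called 4 genes of the list, IFIH1, DDX60, DDX60L and EIF2AK2, and limma 2, IFIH1 and DDX60. An unadjusted p under 0.05 by edgeR was found for 6 of the 7. In 5 of the 7 each IRF2KO_pIRF2 library lay above every IRF2KO library (11.1% of all tested genes). In the other 2 each lay below (11.5% of all tested genes). The list summed to 762 to 798 CPM in IRF2KO_pIRF2, 831 to 948 CPM in IRF2KO and 760 to 780 CPM in WT.

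Oligoadenylate synthetases, which activate RNase L on sensing double-stranded RNA, rose in 2 of 5 tested genes of that pathway, OAS3 and OAS2. OAS3 had 6.23, 6.35 and 6.86 CPM in IRF2KO_pIRF2, 0.623, 1.52 and 0.676 CPM in IRF2KO and 6.13, 5.48 and 7.29 CPM in WT. Its IRF2KO_pIRF2 range overlapped WT and lay above IRF2KO (log2 fold change 2.76 ± 0.28, SE; edgeR adjusted p = 6.3e-04). OAS2 had 1.46, 2.08 and 2.53 CPM in IRF2KO_pIRF2, 0.623, 0.658 and 0.395 CPM in IRF2KO and 0.927, 1.37 and 1.49 CPM in WT, a log2 rise of 1.83 ± 0.32 (SE, edgeR adjusted p = 0.029) that was lost in 6 of 20 alternatives (adjusted p of 0.065 to 0.18), among them those without WT replicate 2, IRF2KO replicate 1 or 3 and IRF2KO_pIRF2 replicate 2 or 3. OAS2 had not passed in IRF2KO against WT (edgeR adjusted p = 0.26). OAS1 had 1.38, 1.24 and 1.05 CPM in IRF2KO_pIRF2, 0.0567, 0.506 and 0.113 CPM in IRF2KO and 0.875, 0.783 and 1.03 CPM in WT and did not pass (edgeR adjusted p = 0.08), with 1 IRF2KO library well above the others of its group but below each IRF2KO_pIRF2 library. That library was IRF2KO replicate 2, and OAS1 was called without it (adjusted p = 0.0017), by DESeq2 (adjusted p = 0.0039), by limma (adjusted p = 0.041) and in 7 of 20 alternatives in all, so that DESeq2 and limma called 3 genes of the pathway.

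Single members of other antiviral lists rose. IFI6, an interferon-induced membrane protein that limits flaviviruses, was 1 of 10 in the list of IFIT, IFITM and related effectors, with 15.6, 17.6 and 16.3 CPM in IRF2KO_pIRF2, 9.92, 8.76 and 7.16 CPM in IRF2KO and 23.6, 23.6 and 22.6 CPM in WT (edgeR adjusted p = 0.013). That list had a median log2 fold change of 0.05. In 3 of its genes each IRF2KO_pIRF2 library lay above every IRF2KO library and in 3 below (11.1% and 11.5% of all tested genes). Its sum was 589 to 601 CPM in IRF2KO_pIRF2, 625 to 738 CPM in IRF2KO and 521 to 629 CPM in WT. APOL2, an apolipoprotein L, averaged 2.22 ± 0.322 CPM in IRF2KO_pIRF2, 0.387 ± 0.284 in IRF2KO and 4.96 ± 0.908 in WT (SD, n = 3 each; edgeR adjusted p = 0.013). DESeq2 also called MX1 of the first list (adjusted p = 0.02), and with GC and length trends removed edgeR called MX1 and IFI35 beside IFI6 (adjusted p = 0.038 for MX1 and 0.015 for IFI35). The calls of IFI6 and APOL2 were lost in 4 and 5 of 20 alternatives, with adjusted p of 0.052 to 0.099 and 0.057 to 0.091, IFI6, and with it the list's only call, without IRF2KO replicate 3 or any 1 IRF2KO_pIRF2 library and APOL2 without IRF2KO replicate 1 or 3 or IRF2KO_pIRF2 replicate 1 or 2. GIMAP2, a GTPase of the immunity-associated family, had 4.34, 5.06 and 5.05 CPM in IRF2KO_pIRF2, 0.793, 0.202 and 0.620 CPM in IRF2KO and 14.3, 11.8 and 9.19 CPM in WT, at 41.0% of WT the lowest level among the 27 genes (edgeR adjusted p = 8.5e-04 against IRF2KO). C19orf66, a blocker of ribosomal frameshifting in viruses, had 9.66, 9.52 and 9.39 CPM in IRF2KO_pIRF2, 3.63, 4.30 and 3.16 CPM in IRF2KO and 11.1, 12.7 and 13.7 CPM in WT (edgeR adjusted p = 0.0018). Other genes cover 27.1% of its exons, so its counts are uncertain.

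APOBEC3G, a cytidine deaminase that acts against retroviruses, was 1 of 5 tested APOBEC3 genes to rise, to 5.57 ± 0.384 CPM in IRF2KO_pIRF2, against 2.06 ± 0.679 in IRF2KO and 4.74 ± 1.06 in WT (SD, n = 3 each; edgeR adjusted p = 0.026). The call was lost in 7 of 20 alternatives (adjusted p of 0.056 to 0.15) and its WT and IRF2KO_pIRF2 libraries overlapped. Among 4 guanylate-binding proteins none was called by edgeR, DESeq2 or limma and 2 had an unadjusted p under 0.05, with GBP3 at 0.644, 0.595 and 0.477 CPM in IRF2KO_pIRF2, 0.0567, 0.101 and 0.169 CPM in IRF2KO and 2.27, 1.11 and 1.13 CPM in WT (edgeR adjusted p = 0.26 against IRF2KO). GBP3 had been called lower in IRF2KO than in WT, and its IRF2KO_pIRF2 libraries lay between the other groups with no overlap. None of the 16 genes in the list of TRIM, SP100 and other restriction factors or of 10 DNA-sensing genes passed by edgeR, DESeq2 or limma, with 5 and 0 of them at an unadjusted p under 0.05. The called antiviral genes SAMD9, SAMD9L, C19orf66 and FAM111A were not in that list of restriction factors.

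FAM111A, CTSO and IL12RB1, which also came back, were chosen for mention after their values were seen. FAM111A, a serine protease that restricts virus replication, averaged 39.2 ± 4.42 CPM in IRF2KO_pIRF2, 16.9 ± 1.04 in IRF2KO and 66.2 ± 13.6 in WT (SD, n = 3 each; edgeR adjusted p = 0.0044). CTSO, a cysteine cathepsin, averaged 3.12 ± 0.186 CPM in IRF2KO_pIRF2, 0.646 ± 0.259 in IRF2KO and 2.09 ± 0.239 in WT (SD, n = 3 each; edgeR adjusted p = 0.0018), with each IRF2KO_pIRF2 library above the WT libraries. IL12RB1, a chain of the interleukin-12 and interleukin-23 receptors, had 16, 21 and 16 counts in IRF2KO_pIRF2, 0, 0 and 1 counts in IRF2KO and 7, 7 and 15 counts in WT (edgeR adjusted p = 0.0067).

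MT2A, a metallothionein that binds zinc and copper, was the gene that came back downward. It had 283, 280.5 and 272 CPM in IRF2KO_pIRF2, 447, 519 and 419 CPM in IRF2KO and 116, 126 and 137 CPM in WT. Its IRF2KO_pIRF2 libraries lay below IRF2KO and above WT. The log2 fold change was -0.73 ± 0.11 (SE, edgeR adjusted p = 0.013) against IRF2KO and 1.14 ± 0.11 (SE, edgeR adjusted p = 0.0022) against WT. The call against IRF2KO was lost when any 1 IRF2KO_pIRF2 library was left out (adjusted p of 0.084 to 0.12). The other 4 of 5 tested metallothioneins had log2 fold changes below 0 and did not pass, MT1E among them at -0.44. Metallothionein genes resemble one another, so their counts are uncertain.

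Levels in IRF2KO_pIRF2 stood below WT in most genes that came back. Across the 27 that rose, the IRF2KO_pIRF2 mean was 41.0% to 304.5% of the WT mean with a median of 64.8%, against 0% to 51.7% with a median of 16.5% in IRF2KO. In 22 of the 27 each IRF2KO_pIRF2 library lay below each WT library, as in 5.75% of all tested genes, but the 27 were chosen partly for being high in these WT libraries, so the count is a description. In OAS3 and IL12RB1 the ranges overlapped, and in 3, SAMD9L and CTSO among them, each IRF2KO_pIRF2 library lay above WT (5.81% of all tested genes). By the edgeR test against WT, 3 of the 28 were called, UBE2L6 and BTN3A1 below WT and MT2A above it. A miss does not show that a gene matched WT. CASP4 missed it at 50.4% of WT (log2 fold change -0.99 ± 0.18, SE; edgeR adjusted p = 0.091), and PSMB9 missed it at 54.8% (log2 fold change -0.87 ± 0.16, SE; edgeR adjusted p = 0.11). Of the 27, 8 had a mean under 5 CPM in IRF2KO_pIRF2 and rest on fewer reads.

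**Figure D3:**
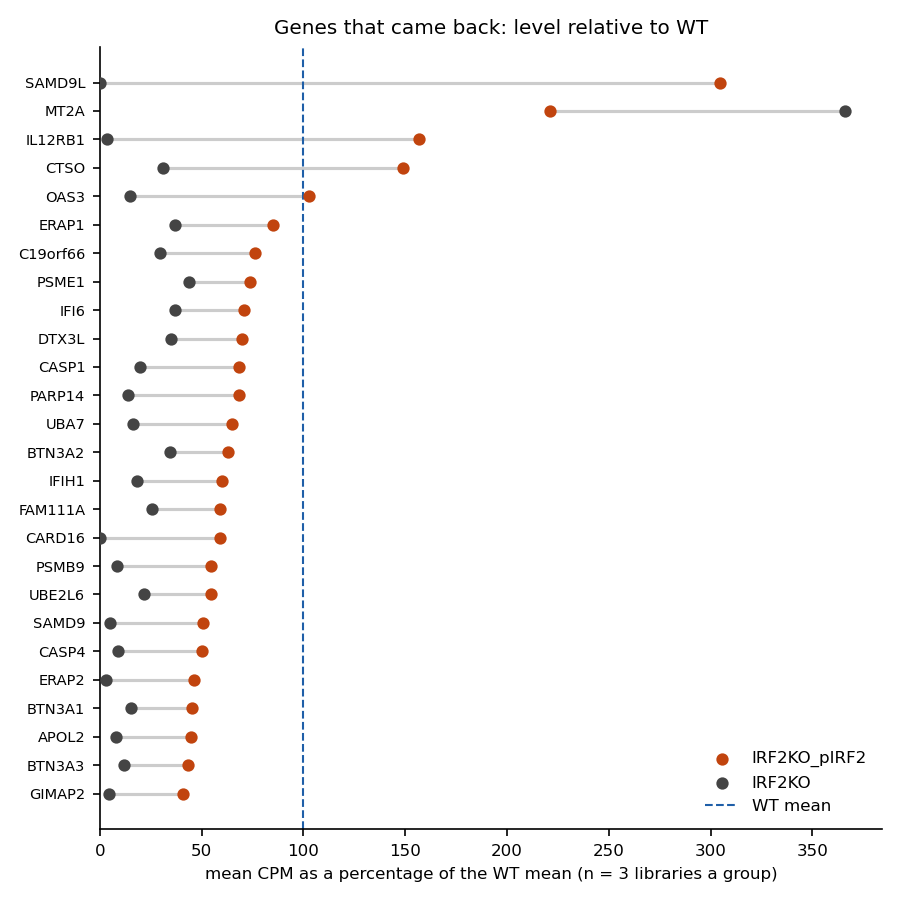
Mean CPM in IRF2KO_pIRF2 (red) and IRF2KO (dark grey) as a percentage of the WT mean for 26 of the 28 genes that came back, those described by name, 1 gene per row with n = 3 libraries a group and the WT mean as the dashed line at 100%. Most red points lie between the grey point and the dashed line; OAS3 is near it, CTSO, IL12RB1 and SAMD9L lie beyond it, and MT2A runs from the right towards it.

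Several of the genes that came back are neighbours on their chromosomes (coordinates in GRCh38, from GENCODE 29). CASP4 (chr11:104942866-104969436), CASP1 (chr11:105025443-105035250) and CARD16 (chr11:105041326-105101431) lie on chromosome 11. ERAP1 (chr5:96760810-96808100) and ERAP2 (chr5:96875939-96919716) lie on chromosome 5. SAMD9 (chr7:93099513-93118023) and SAMD9L (chr7:93130055-93148369) lie on chromosome 7, and DTX3L (chr3:122564238-122575203) and PARP14 (chr3:122680618-122730840) on chromosome 3. BTN3A2 (chr6:26365159-26378320), BTN3A1 (chr6:26402237-26415216) and BTN3A3 (chr6:26440472-26453415) lie on chromosome 6, and OAS3 (chr12:112938352-112973249) and OAS2 (chr12:112978395-113011723) on chromosome 12, of which OAS2 did not pass in IRF2KO against WT.

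The genes outside both groups were few. CD84, a self-binding receptor of the SLAM family on leukocytes, had 3.09, 2.78 and 3.53 CPM in IRF2KO_pIRF2, 0.227, 0.405 and 0.395 CPM in IRF2KO and 0.463, 0.326 and 0.513 CPM in WT. Each IRF2KO_pIRF2 library was several times higher than any library of the other groups, by a log2 fold change of 3.16 ± 0.27 against IRF2KO and 2.81 ± 0.26 against WT (SE, edgeR adjusted p = 2.0e-04 and 0.0022). RORB, an orphan nuclear receptor of neural tissue, had 3.26, 3.17 and 3.43 CPM in IRF2KO_pIRF2, 1.02, 0.557 and 0.902 CPM in IRF2KO and 1.08, 0.653 and 0.668 CPM in WT, with log2 fold changes of 1.997 ± 0.26 and 2.02 ± 0.26 (SE, edgeR adjusted p = 0.0034 against IRF2KO and 0.011 against WT). GAL, which encodes the neuropeptide galanin, was lower, with 0.258, 0.248 and 0.334 CPM in IRF2KO_pIRF2, 2.27, 1.67 and 1.35 CPM in IRF2KO and 1.34, 1.70 and 2.05 CPM in WT. Its log2 fold changes were -2.63 ± 0.33 and -2.58 ± 0.33 (SE, edgeR adjusted p = 0.0028 against IRF2KO and 0.011 against WT). In all 3 genes the IRF2KO and WT ranges overlapped and levels were under 5 CPM, and the 3 were named after their values were seen. The size of this set depended on the fit: it was 8 without IRF2KO replicate 2, 1 without WT replicate 2 or any 1 IRF2KO_pIRF2 library, 13 with DESeq2 and 15 with GC and length trends removed.

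**Figure D4:**
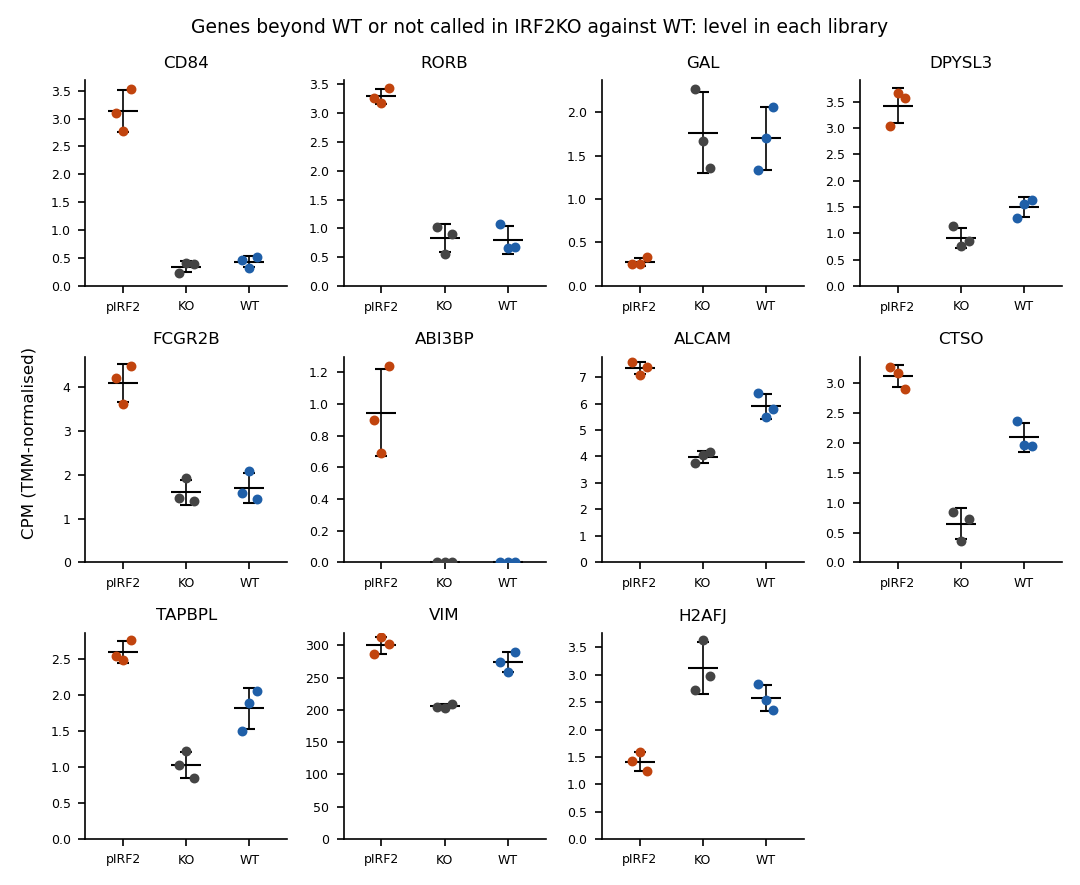
TMM-normalised CPM of 11 called genes with levels beyond WT or with no call in IRF2KO against WT, in each of the 9 libraries by group (IRF2KO_pIRF2, IRF2KO and WT from left to right), with points for libraries and bars for the mean ± SD. CD84, RORB and ABI3BP are high in IRF2KO_pIRF2 alone and GAL is low there, while VIM and ALCAM are lowest in IRF2KO.

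Of the other 11 called genes, 10 were higher in IRF2KO_pIRF2 than in IRF2KO. FCGR2B, the inhibitory Fc gamma receptor, was 1 of 15 Fc receptor and complement genes to rise, with 4.21, 3.62 and 4.48 CPM in IRF2KO_pIRF2, 1.47, 1.92 and 1.41 CPM in IRF2KO and 1.60, 2.09 and 1.44 CPM in WT (edgeR adjusted p = 0.014). Its IRF2KO and WT ranges overlapped, its call was lost in 5 of 20 alternatives (adjusted p of 0.084 to 0.11), those without IRF2KO replicate 1 or 3 or IRF2KO_pIRF2 replicate 1 or 3 among them, and it shares reads with close paralogs and, over 7.29% of its exons, with another gene. DPYSL3, a cytoskeletal protein of neurons, had 3.05, 3.67 and 3.57 CPM in IRF2KO_pIRF2, 1.13, 0.759 and 0.845 CPM in IRF2KO and 1.29, 1.57 and 1.64 CPM in WT (edgeR adjusted p = 0.0018), again with IRF2KO_pIRF2 above both other groups. ABI3BP, an extracellular matrix protein, had 21, 14 and 26 counts in IRF2KO_pIRF2, 0, 0 and 0 counts in IRF2KO and 0, 0 and 0 counts in WT. It was at least 17.4-fold higher than in IRF2KO and at least 17.1-fold higher than in WT against the floor of 3 counts a group, and its call was lost without any 1 IRF2KO_pIRF2 library or IRF2KO replicate 3 (edgeR adjusted p of 0.061 to 0.084).

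TAPBPL, a peptide editor of MHC class I, averaged 2.59 ± 0.151 CPM in IRF2KO_pIRF2, 1.03 ± 0.185 in IRF2KO and 1.81 ± 0.289 in WT (SD, n = 3 each; edgeR adjusted p = 0.024), with 11.5% of its exons covered by other genes. ALCAM, an adhesion molecule, averaged 7.35 ± 0.237 CPM in IRF2KO_pIRF2, 3.99 ± 0.222 in IRF2KO and 5.89 ± 0.458 in WT (SD, n = 3 each; edgeR adjusted p = 0.023). ATP10D, a phospholipid flippase, averaged 6.07 ± 0.556 CPM in IRF2KO_pIRF2, 2.66 ± 0.254 in IRF2KO and 4.95 ± 1.18 in WT (SD, n = 3 each; edgeR adjusted p = 0.027). In all 3 genes IRF2KO had the lowest mean without being called against WT. Their calls were lost in 8 (TAPBPL), 10 (ALCAM) and 6 (ATP10D) of 20 alternatives. The calls of these 3 genes and of APOBEC3G and VIM were lost without IRF2KO replicate 1 or 3 and without any 1 IRF2KO_pIRF2 library, and all but that of ATP10D were also lost without WT replicate 2. ALCAM, ATP10D, DPYSL3, ABI3BP and H2AFJ were named after their values were seen.

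VIM, which encodes the intermediate filament vimentin, had 286, 312 and 303 CPM in IRF2KO_pIRF2, 205, 203 and 209 CPM in IRF2KO and 274, 258 and 290.2 CPM in WT. Its log2 rise of 0.55 ± 0.09 (SE, edgeR adjusted p = 0.027) was lost in 9 of 20 alternatives (adjusted p of 0.062 to 0.23), and antisense genes cover 24.4% of its exons. VIM was the single riser among 3 tested epithelial and fibroblast markers. With GC and length trends removed COL1A1 of this list was called too (edgeR adjusted p = 0.014). VIM made up most of the summed level of the 14 in the table. The sum was 299.0 to 330.5 CPM in IRF2KO_pIRF2, 218.2 to 220.6 CPM in IRF2KO and 273.1 to 308.5 CPM in WT. After VIM the highest were ACTA2, COL1A1, PDGFRB, KRT8 and KRT18. In the IRF2KO_pIRF2 libraries together 6 of the 14 had more than 3 counts. In all 9 libraries 7 had 0 counts, EPCAM, DCN, LUM and COL1A2 among them. BLNK, a B cell adaptor and 1 of 7 tested B cell markers, averaged 1.59 ± 0.471 CPM in IRF2KO_pIRF2, 0.382 ± 0.0603 in IRF2KO and 1.25 ± 0.300 in WT (SD, n = 3 each; edgeR adjusted p = 0.023). The 13 B cell markers in the table summed to 27.2 to 28.7 CPM in IRF2KO_pIRF2, 25.3 to 36.3 CPM in IRF2KO and 21.6 to 25.7 CPM in WT, with MS4A1, BLK and IGHM at 0 counts throughout. The part of cells of other types in the values of VIM and BLNK was not tested. The call of BLNK was lost in 7 of 20 alternatives (adjusted p of 0.063 to 0.15), those without any 1 IRF2KO library or IRF2KO_pIRF2 replicate 1 or 2 among them, and ZNF518A covers 9.71% of its exons. H2AFJ, a histone H2A variant and the single lower gene of this set, averaged 1.41 ± 0.174 CPM in IRF2KO_pIRF2, 3.12 ± 0.475 in IRF2KO and 2.58 ± 0.237 in WT (SD, n = 3 each; edgeR adjusted p = 0.035), a call that held in 8 of 20 alternatives and was lost when any 1 library but WT replicate 3 was left out.

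Of the 48 genes called in IRF2KO against WT, 20 were not called back, 15 of them lower and 5 higher in IRF2KO than in WT. IRF2 itself was 1 of the 15 and lay further from WT in IRF2KO_pIRF2 (43.0% of the WT mean) than in IRF2KO (62.2%). ANXA2R, an annexin A2 receptor, had 2.53, 2.23 and 1.91 CPM in IRF2KO_pIRF2, 1.02, 1.72 and 1.35 CPM in IRF2KO and 5.25, 5.55 and 5.39 CPM in WT. Its IRF2KO_pIRF2 libraries lay above each IRF2KO library but remained lower than WT by the test (log2 fold change -1.27 ± 0.20, SE; edgeR adjusted p = 0.048). HERC6, a relative of the ISG15 ligase, had 0.816, 0.595 and 0.810 CPM in IRF2KO_pIRF2, 0.397, 0.557 and 0.451 CPM in IRF2KO and 1.75, 2.61 and 1.75 CPM in WT, a log2 fold change over IRF2KO of 0.65 ± 0.33 (SE, edgeR adjusted p = 0.45). MX1, a dynamin-like antiviral GTPase, averaged 2.06 ± 0.247 CPM in IRF2KO_pIRF2, 0.853 ± 0.342 in IRF2KO and 2.94 ± 0.176 in WT (SD, n = 3 each; edgeR adjusted p = 0.13 against IRF2KO). SIRPB1 and LSP1, 2 of 26 monocyte maturation and surface genes, had been higher in IRF2KO than in WT and did not pass against IRF2KO, with log2 fold changes of -0.19 and -0.36. IFI35, an interferon-induced leucine zipper protein, averaged 1.52 ± 0.297 CPM in IRF2KO_pIRF2, 0.540 ± 0.134 in IRF2KO and 2.02 ± 0.668 in WT (SD, n = 3 each; edgeR adjusted p = 0.19 against IRF2KO). FLT3LG, IL15RA, TFEC, NCALD, ME3, KIR3DX1, TMEM132B and ROR2 complete the set beside genes already described, with log2 fold changes over IRF2KO between -1.05 for ROR2 and 2.88 for FLT3LG.

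No tested interferon regulatory factor, receptor or JAK-STAT gene was called higher, and a miss does not show that levels were alike. None of 7 tested interferon regulatory factors passed by edgeR or limma in IRF2KO_pIRF2 against IRF2KO, with 1 called by DESeq2, IRF2, and 2 at an unadjusted p under 0.05. The IRF2-binding protein genes IRF2BP1, IRF2BP2 and IRF2BPL, kept in the same list, had log2 fold changes of -0.61, 0.14 and -0.32 and did not pass either. IRF1, the activator that IRF2 opposes, had 8.38, 8.38 and 7.24 CPM in IRF2KO_pIRF2, 7.93, 8.86 and 7.89 CPM in IRF2KO and 5.41, 5.42 and 8.32 CPM in WT, with overlapping groups and a log2 fold change of -0.04 ± 0.18 (SE, edgeR adjusted p = 0.92). None of 15 interferon receptor and JAK-STAT signalling genes and none of 8 interferon gamma genes passed by edgeR, DESeq2 or limma or had an unadjusted p under 0.05. The median log2 fold changes were -0.15 for the 7 regulatory factors, -0.01 for the receptor and JAK-STAT genes and -0.11 for the interferon gamma genes.

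Across the 45 gene lists examined, 19 had at least 1 called member and 26 had none, and 12 of the 42 called genes were in no list. Among these 12 were the cathepsin CTSO and the antiviral genes FAM111A and C19orf66. The lists of cathepsins and of restriction factors thus do not hold every such gene, and a list with no call does not cover the genes left out of it. Lists with no called member covered Toll-like receptor signalling and LPS sensing (10 genes), NF-kB factors, cytokines and chemokines (15), primary granule proteins (8), myeloid lineage factors (13), proliferation (33), monocyte maturation (26), heat shock (14), integrated and ER stress (24), hypoxia and glycolysis (26), cholesterol and fatty acid synthesis (29), the oxidative stress response (18), mitochondrially encoded genes (13), lysosome and cathepsins (19) and ribosomal proteins (32). The medians of these lists lay on the log2 scale between -0.26, for the primary granule proteins, and 0.10, for the Toll-like receptor genes. FTH1, the ferritin heavy chain, came nearest to the threshold among them, with 394, 481 and 445 CPM in IRF2KO_pIRF2, 309, 320.1 and 292 CPM in IRF2KO and 318, 308 and 307 CPM in WT (log2 fold change 0.52 ± 0.10, SE; edgeR adjusted p = 0.074), and passed in 4 of 20 alternatives. Over the 26 lists, 42 of 399 tested genes had an unadjusted p under 0.05, against 1291 of all 11517 tested genes. The share in these lists was thus close to that of all genes. DESeq2 called members in 2 of these lists (the one of the interferon regulatory factors and the oxidative stress response) and limma in none. A miss does not show that these functions were alike in both groups.

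**Figure D5:**
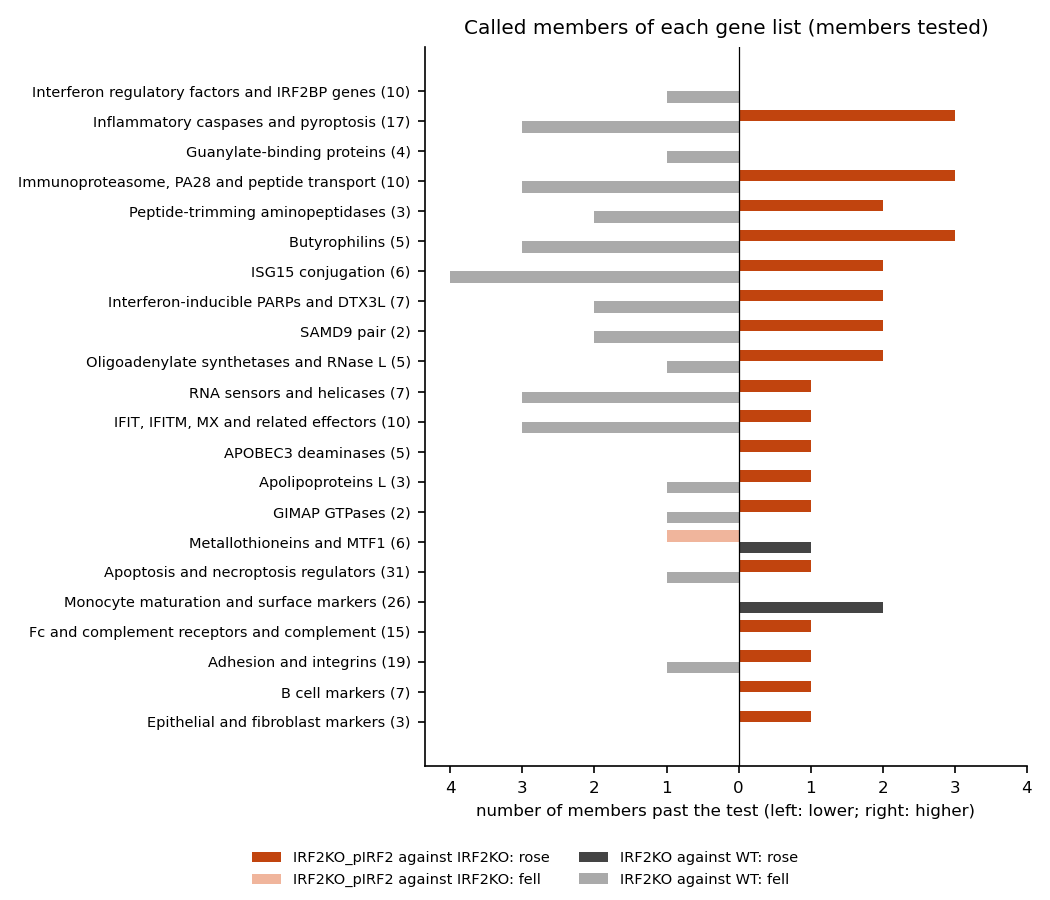
Number of members past the edgeR test in each gene list with a called member in either comparison (number tested in parentheses), higher to the right and lower to the left of 0, in IRF2KO_pIRF2 against IRF2KO (red) and in IRF2KO against WT (grey). Bars for caspases, antigen processing, aminopeptidases, butyrophilins, PARPs and the SAMD9 pair point right in red and left in grey, and the ISG15, RNA sensor and IFIT lists have longer grey than red bars.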

How the data were processed

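RNA-seq of U937-Cas9 cells gave 9 libraries, 3 a group, made with the SENSE mRNA-Seq kit from RNA purified with a Macherey Nagel kit, per the labels' protocols. The deposited values are the authors' raw counts of reads per gene in 1 table, not normalised. Per the submitters' processing notes the tools included Bowtie2 2.3.3, TopHat2 2.1.1 and HTSeq 0.9.1 on hg38. No source used here gives the annotation release or the strand setting, so reads of overlapping, antisense or near-identical genes cannot be told apart. Of 20265 identifiers, 20012 matched GENCODE 29, the source of symbols and coordinates.

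Counts were filtered with filterByExpr, scaled by TMM and tested with edgeR 4.0.16 (quasi-likelihood F-test, R 4.3.3), all 9 libraries in 1 fit with no covariate and Benjamini-Hochberg adjustment over 11517 genes at 0.05. Alternatives used DESeq2 1.42.0, limma 3.58.1 (voom), other filters, scalings and covariates, a replicate block and leaving out libraries, 20 in all. The fit was also run on simulated counts with the same dispersion for all genes and libraries. The replicates here varied unevenly, so that run checks the code only and does not support the calls. Depth ran from 14824907 to 23108288 counts, and the floor of 3 counts was 0.129 to 0.196 CPM in a single library; floors cover counting error only. Named genes were IRF2, CASP1, CASP4, CARD16, GSDMD and IRF1, up to 12 with the largest changes in each direction at 5 CPM or more, up to 10 that came back or lay outside both groups per direction, up to 4 called members of each of 45 lists, and up to 6 called in IRF2KO against WT and not called here. Some genes outside this rule are marked as chosen after their values were seen or complete a set. Others are list members that the rule did not select, and they carry no mark. HLA-B, ISG15, USP18, OAS1, PARP9, MX1, FTH1 and COL1A1 are among them, and their mention was not fixed in advance. Some genes that the rule names are not reported here. The comparison and the lists were chosen with earlier results of these data known.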

Additional observations from a re-analysis of the deposited data

How the results depend on the processing

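Of the 42 called genes, 25 passed in each of the 20 alternatives and 17 lost the call in at least 1; of the 28 that came back, 21 passed in each. Leaving out 1 library at a time gave 25 to 44 genes higher, 1 to 3 lower, 19 to 28 that came back and 1 to 8 outside both groups, with IRF2 at -0.58 to -0.45 on the log2 scale. DESeq2 called 59 higher, 9 lower, 40 that came back and 13 outside both groups, with IRF2 at -0.54 (adjusted p = 0.015). With GC and length trends removed, 59 were higher, 5 lower, 40 came back and 15 were outside both groups, with IRF2 at -0.65 (edgeR adjusted p = 0.038). Without a filter on low counts 5 were lower and 7 outside both groups, with the mitochondrial share as a covariate 7 were lower and 33 came back, limma-voom gave 5 outside both groups, leaving out WT replicate 1 and IRF2KO replicate 2 together gave 8 and 34 that came back, and libraries above 15% mitochondrial counts alone gave 0. The cause was not tested. IRF1, at -0.041, ran from -0.074 to 0.027 with 1 library left out (above 0 without IRF2KO replicate 2 or IRF2KO_pIRF2 replicate 3), and stood at 0.017 without both end libraries and 0.032 with the GC and length trends removed, none past the test. Over the 50 named or called genes other than IRF2 and the alternatives that tested them, 874 pairs kept direction and side of the threshold, 105 lost a call, 16 gained one and 4 turned. IRF2, not counted there, gained a call in 2 alternatives, DESeq2 and the fit with GC and length trends removed.

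With the replicate number as a block the test called 34 genes higher and 2 lower, with 26 that came back and 3 outside both groups. Same-numbered IRF2KO_pIRF2 and IRF2KO libraries deviated together with correlations of -0.235, -0.084 and 0.216, so the labels and data do not show that the numbers pair the samples. Genes under 5 CPM and those with 0 counts in a group are limited by depth.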

Other observations

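CD52, a small glycoprotein of leukocyte surfaces named here after its values were seen, was 1 of the 9 genes called in IRF2KO_pIRF2 against WT. It had 4.17, 4.12 and 3.86 CPM in IRF2KO_pIRF2, 2.49, 2.38 and 2.09 CPM in IRF2KO and 1.39, 0.979 and 0.924 CPM in WT, 3 ranges in steps with no overlap. Its log2 fold change was 1.87 ± 0.21 against WT (SE, edgeR adjusted p = 0.0041) and 0.80 ± 0.19 against IRF2KO, which did not pass (edgeR adjusted p = 0.21). IRF2KO against WT did not pass either, at 1.07 ± 0.22 (log2, SE; edgeR adjusted p = 0.087).

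KIR3DX1, a killer immunoglobulin-like receptor relative also named after its values were seen, had 2.53, 2.13 and 2.62 CPM in IRF2KO_pIRF2, 1.93, 3.44 and 2.82 CPM in IRF2KO and 0.721, 0.783 and 1.03 CPM in WT. It had been called higher in IRF2KO than in WT, and its IRF2KO_pIRF2 libraries overlapped IRF2KO and lay above WT (log2 fold change 1.51 ± 0.27 against WT, SE; edgeR adjusted p = 0.099).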
